A study of Mus musculus with 4 samples.

Results

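The arms of miR-137, miR-138 and miR-153 are the mature miRNAs cut from the 5′ side (5p) and the 3′ side (3p) of 4 mouse hairpins. They were taken by name from the deposited table of miRNAs, which lists 7 such arms among its 1038 miRNAs. Small RNA was sequenced from the medial prefrontal cortex, a frontal area of the brain with a role in mood, in 2 Control libraries and 2 CUMS libraries. Both groups were C57BL/6 mice, named in the methods as juvenile male C57BL/6J mice that entered the experiment at postnatal day 21. CUMS stands for chronic unpredictable mild stress, in which mice meet changing mild stressors over 3 weeks, and the Control mice were kept without it. Only stressed mice that changed in all 3 behaviour tests, read as depression-like, were used, and the cortex of both hemispheres was dissected 24 h after testing. The CUMS group therefore holds the stressed mice that responded, not all stressed mice. The methods speak of biological duplicates and of RNA isolated mouse by mouse, but neither they nor the labels state whether a library is 1 mouse or a pool, so p-values measure only the spread between these libraries.

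A miRNA guides the silencing complex to mRNAs through its seed, the bases near its 5′ end that pair with the 3′ untranslated region (3′ UTR) of a target. miR-137, miR-138 and miR-153 are abundant in neurons and are known at the synapse: miR-137 acts on neuronal maturation and vesicle release, miR-138 limits the size of dendritic spines, and miR-153 acts on the proteins that fuse synaptic vesicles with the membrane. The arm of a hairpin that is kept in the silencing complex is called the guide, and the other arm is mostly degraded.

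The 7 arms hold 7 different seeds, although the 3p arms of miR-138 are much alike in sequence. The mature sequences of all 7 were found in RefSeq on GRCm38.p6 and are written 5′ to 3′ with the seed, bases 2 to 8, in capitals.
mmu-miR-137-3p: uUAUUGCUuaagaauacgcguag
mmu-miR-137-5p: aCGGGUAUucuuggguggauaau
mmu-miR-138-5p: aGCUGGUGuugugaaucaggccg
mmu-miR-138-1-3p: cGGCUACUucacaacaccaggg
mmu-miR-138-2-3p: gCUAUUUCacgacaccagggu
mmu-miR-153-3p: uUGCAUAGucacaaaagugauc
mmu-miR-153-5p: gUCAUUUUugugacguugcagcu
The GC content ran from 34.8% in miR-137-3p to 59.1% in miR-138-1-3p. Of the 1038 miRNAs, 884 (85.2%) had a mature sequence in RefSeq, and no other of these had bases 2 to 8 of any of the 7 arms. With bases 2 to 7 alone, a single further miRNA matched, miR-448-3p, which shares them with miR-153-3p.
mmu-miR-448-3p: uUGCAUAUguaggaugucccau
Its reads numbered between 66 and 110 in a library, far fewer than those of miR-153-3p.

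The 4 hairpins lie on 4 chromosomes of GRCm38. Mir137 (chr3:118433857-118433929, plus strand) lies in an exon of the noncoding transcript gene Gm26871 of GENCODE M21. Mir153 (chr12:117250817-117250885, plus strand) lies in an intron of Ptprn2, a gene for a dense-core vesicle protein on the same strand, and in an intron of the antisense gene Gm5441. miR-138 has a hairpin at each of 2 loci. Mir138-1 (chr9:122682876-122682974, plus strand) lies in an exon of Gm47135, annotated as a transcribed pseudogene, and Mir138-2 (chr8:94324311-94324381, plus strand) in an exon of the long noncoding RNA gene C78859. Their hairpins are shown because the loci share the 5p arm and differ in the 3p arm, with both arms in capitals.
Mir138-1: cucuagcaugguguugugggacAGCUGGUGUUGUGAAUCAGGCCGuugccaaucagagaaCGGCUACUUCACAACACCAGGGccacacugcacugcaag
Mir138-2: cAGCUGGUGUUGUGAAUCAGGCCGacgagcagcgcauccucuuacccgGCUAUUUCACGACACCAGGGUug
The 5p arm is identical at both loci, so reads of miR-138-5p cannot be assigned to a locus, whereas the 3p arms can be told apart. The 3p arm of Mir138-2 starts 2 bases further in than that of Mir138-1. Over the 20 bases they have in common, 18 are identical and 2 differ, C7U and A13G, with positions counted from the 5′ end of miR-138-1-3p and its base written first. The shifted start gives the 3p arms different seeds.

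The deposited values are group means of reads divided by a size factor for each library. Since each library counts in steps of its own within a mean, its reads could be solved for as whole numbers, and the letters a and b name the libraries within a group, with no link to replicate numbers. The recovered totals were 10533646 reads in Control library a, 10783592 in Control library b, 10427625 in CUMS library a and 9589323 in CUMS library b. The 7 arms held 0.316% and 0.362% of the reads of the Control libraries and 0.478% and 0.339% of those of the CUMS libraries.

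Control library b stood apart from the other libraries. The miR-182, miR-183, miR-96 and miR-200 group, 8 miRNAs known from epithelium and sensory cells, took 9.32% of its reads, against 0.0393% in Control library a, 0.0503% in CUMS library a and 0.0721% in CUMS library b. The most abundant of them was miR-182-5p, with 962144 reads in Control library b and 3931 in Control library a. In Control library a miR-200c-3p and miR-96-5p had 0 reads, and miR-200c-3p had 0 reads in both CUMS libraries as well. The differences of the arms between the groups are given with and without it.

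miR-138-5p, the guide arm of miR-138, was the most abundant of the 7 arms. Its reads came to 21182 (a) and 27555 (b) for Control and to 36115 (a) and 22057 (b) for CUMS, with the library in brackets. Divided by the size factors, these are normalised counts of 20719, 27544, 34005 and 23370, and miR-138-5p ranked 45 of the 1038 miRNAs by its mean. CUMS library a was the highest and Control library a the lowest, while CUMS library b fell inside the range of the Control group, so the groups overlapped.
miR-153-3p, the guide arm of miR-153, followed, and its reads came to 8360 in library a and 8047 in library b of Control, and to 9611 in library a and 6835 in library b of CUMS. Normalised, these are 8177 and 8044 for Control against 9049 and 7242 for CUMS, at rank 80. The Control libraries were nearly equal and the CUMS libraries lay on either side of them.
miR-137-3p, the guide arm of miR-137, ranked 173, with reads of 1064 (a) and 705 (b) for Control and 976 (a) and 1008 (b) for CUMS. Normalised, these are 1041 and 705 for Control against 919 and 1068 for CUMS. Control library b was low and the other libraries were close together, so Control library a lay between the CUMS libraries and the groups overlapped.

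The remaining arms are the partners of the guides. miR-138-1-3p ranked 131, above miR-137-3p, with reads of 2228 (a) and 2163 (b) for Control and 2541 (a) and 2284 (b) for CUMS. Its normalised counts were 2179 and 2162 for Control against 2393 and 2420 for CUMS. The CUMS libraries both exceeded the higher Control library, as in 16.7% of the 719 miRNAs tested below, while the groups of the other arms overlapped. The reads of miR-153-5p came to 407 (a) and 567 (b) for Control and 495 (a) and 329 (b) for CUMS, with the lowest and the highest normalised count, 349 and 567, in CUMS library b and Control library b. Those of miR-138-2-3p came to 17 (a) and 30 (b) for Control and 52 (a) and 14 (b) for CUMS, and the CUMS libraries enclosed the Control libraries. miR-137-5p was barely detected, with reads of 7 (a) and 1 (b) for Control and 7 (a) and 0 (b) for CUMS. In CUMS library b the count of 0 was read against a floor of 3 reads, which is a share of 3.13e-05% of the reads.

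**Figure D1:**
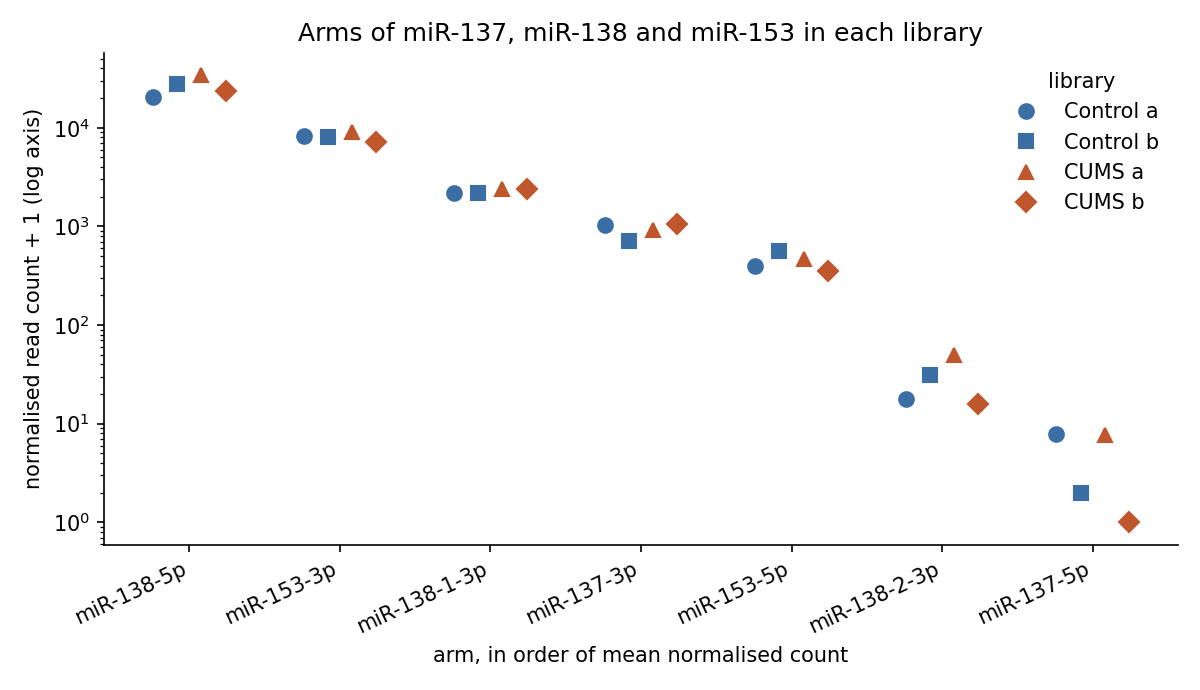
Normalised read count plus 1 of each arm on a log axis, with 1 point for each library (blue, Control; orange, CUMS). The order of the 7 arms was the same in every library, and the libraries of miR-138-1-3p, from 2162 to 2420, lay closest together.

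The order of levels was miR-138-5p, miR-153-3p, miR-138-1-3p, miR-137-3p, miR-153-5p, miR-138-2-3p and miR-137-5p, and it held in each library. No neighbours in this order overlapped over the 4 libraries. The closest were miR-137-3p and miR-153-5p, where the lowest library of the first, 705, stood above the highest library of the second, 567. miR-138-5p was between 2.53 and 3.76 times miR-153-3p in a library, and miR-138-1-3p between 2.09 and 3.07 times miR-137-3p. These are levels of reads, and how well each sequence is captured in a library was not measured.

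The libraries of a group were also set beside each other. As CPM, reads scaled to the miRNA total of their library, miR-137-3p was at 101 (95% Wilson interval 95.1 to 107) in Control library a and 65.4 (60.7 to 70.4) in Control library b. miR-138-5p was at 3463 CPM (3428 to 3499) in CUMS library a and 2300 (2270 to 2331) in CUMS library b. On this scale the intervals of the libraries were apart in both groups for miR-138-5p, miR-153-3p and miR-153-5p, in Control for miR-137-3p and in CUMS for miR-138-2-3p, and they overlapped in the other cases. These intervals cover counting error only, since the reads carry no molecular identifiers. The gap between libraries of a group was set beside that of all 304 miRNAs with a mean normalised count of at least 100. The gap of miR-138-5p on the log2 scale was 0.41 in Control and 0.54 in CUMS, larger than in 82.2% and 84.5% of these miRNAs. The gap of miR-137-3p was 0.56 in Control, larger than in 91.1%, and 0.22 in CUMS, larger than in 46.1%. That of miR-153-5p was 0.51 in Control and 0.42 in CUMS, larger than in 89.1% and 74.0%. In contrast, the gap of miR-138-1-3p was 0.011 in Control and 0.016 in CUMS, and only 3.62% and 4.61% of the miRNAs had a smaller one. That of miR-153-3p was 0.024 in Control, with a smaller one in 8.55%, and 0.32 in CUMS, with a smaller one in 65.1%. Scaled to total reads, a scale added here after seeing the data, the gap of miR-138-1-3p was 0.077 in Control and 0.033 in CUMS, with a smaller one in 22.4% and 5.26%, and that of miR-138-5p was 0.35 and 0.59, larger than in 74.7% and 87.5%. For miR-153-5p the gap was then larger than in 82.9% and 79.6%. In both groups and on both scales miR-138-1-3p was thus steadier than most of these 304 miRNAs, and miR-138-5p and miR-153-5p were less steady. In contrast, miR-137-3p and miR-153-3p differed in this between Control and CUMS. The 304 miRNAs were not matched to the arms by abundance.

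The groups were compared to ask whether the arms differ between stressed mice with depression-like behaviour and unstressed mice. All 7 arms passed the filter of at least 5 reads in at least 1 library. miR-137-5p passed it through its 7 reads in a library of each group. limma was fitted to the log2 normalised counts of the 719 miRNAs that passed, with a pseudocount of 1 and with adjusted p-values over all 719. It called 0 of the 7 arms at an adjusted p under 0.05, and 0 of the 719 miRNAs (0%). At an unadjusted p under 0.05 it gave 28 miRNAs (3.89%), with 0 of the 7 arms among them. edgeR (quasi-likelihood) called 0 miRNAs, with 30 (4.17%) at an unadjusted p under 0.05, and DESeq2 (Wald) called 0, with 24 (3.34%), and neither number includes any of the 7 arms. With Control library a left out, limma called 7 miRNAs, and all 7 belong to the epithelium and sensory list that is high in Control library b. None of the arms was called with any library left out.

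On the log2 scale of normalised count plus 1, the fitted difference of CUMS minus Control was 0.24 for miR-138-5p (95% interval -0.32 to 0.79, limma adjusted p = 0.886). It was 0.21 for miR-137-3p (-0.35 to 0.77, adjusted p = 0.886) and -0.0027 for miR-153-3p (-0.39 to 0.39, adjusted p = 0.994). The difference of miR-137-3p rests on the low Control library b, and it was -0.078 without that library. The difference of miR-138-5p rests on the high CUMS library a and the low Control library a, since it was -0.041 without the first and 0.024 without the second. Without Control library b it was 0.44, and that of miR-153-3p was then -0.022. The guide arms therefore had no direction that held with each library left out, and that of miR-153-3p was near 0 with its sign depending on the scaling. The limma interval of miR-153-3p was the second narrowest of the 7 and reached no further than 0.39 on either side.

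The difference of miR-138-1-3p was 0.15 (-0.20 to 0.50, adjusted p = 0.886), the smallest of the positive ones among the arms. It was between 0.14 and 0.15 with each library left out in turn, and 0.14 without Control library b. It moved more with the scaling, to 0.23 when scaled to total reads and 0.11 by TMM factors, and its groups did not overlap with any of the 4 scalings tried. A pattern of this kind was common. Of the 719 miRNAs, 33.8% had groups that did not overlap, against 1 of the 7 arms, and 16.7% had both CUMS libraries above, against 1 of the 7. The split of all miRNAs was 120 above and 123 below by size factors, and 163 above and 85 below when scaled to total reads. The two-sided exact permutation test over the 4 libraries gave p = 0.33 for miR-138-1-3p, which is the smallest p it can give, and 0.667 or more for each of the other arms.

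The partner arms with fewer reads had wide intervals. The difference of miR-153-5p was -0.24 (-0.86 to 0.38, adjusted p = 0.886), and it was 0.011 without Control library b, its highest library. For miR-138-2-3p it was 0.27 (-1.26 to 1.79, adjusted p = 0.948), and for miR-137-5p -0.52 (-3.76 to 2.71, adjusted p = 0.948). Both moved with the libraries and settings. Without Control library b they were 0.67 for miR-138-2-3p and -1.52 for miR-137-5p. miR-138-2-3p changed sign without Control library a (-0.15) or CUMS library a (-0.57), and miR-137-5p without Control library a (0.46) or CUMS library b (0.95). The value of miR-138-2-3p was 0.43 with edgeR and 0.45 with DESeq2 and as the ratio of the deposited means. That of miR-137-5p ran from -0.82 with a pseudocount of 0.5 to -0.15 with a pseudocount of 5. The interval of miR-137-5p was too wide to give a direction, and what difference its few reads could show was not tested. By the fitted value 4 of the 7 arms were higher and 3 lower in CUMS, with a median of 0.15. Over all 719 miRNAs 50.5% were higher, with a median of 0.0050. With scaling to total reads, 5 of the 7 arms and 58.0% of all miRNAs were higher, since miR-153-3p changed its sign. The median of all miRNAs then moved to 0.080. By TMM factors 4 of the 7 arms and 47.1% of all miRNAs were higher, and the median of all miRNAs was -0.022. With scaling to reads outside the epithelium and sensory list, chosen after seeing the data, 5 of the 7 arms and 51.3% of all miRNAs were higher.

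**Figure D2:**
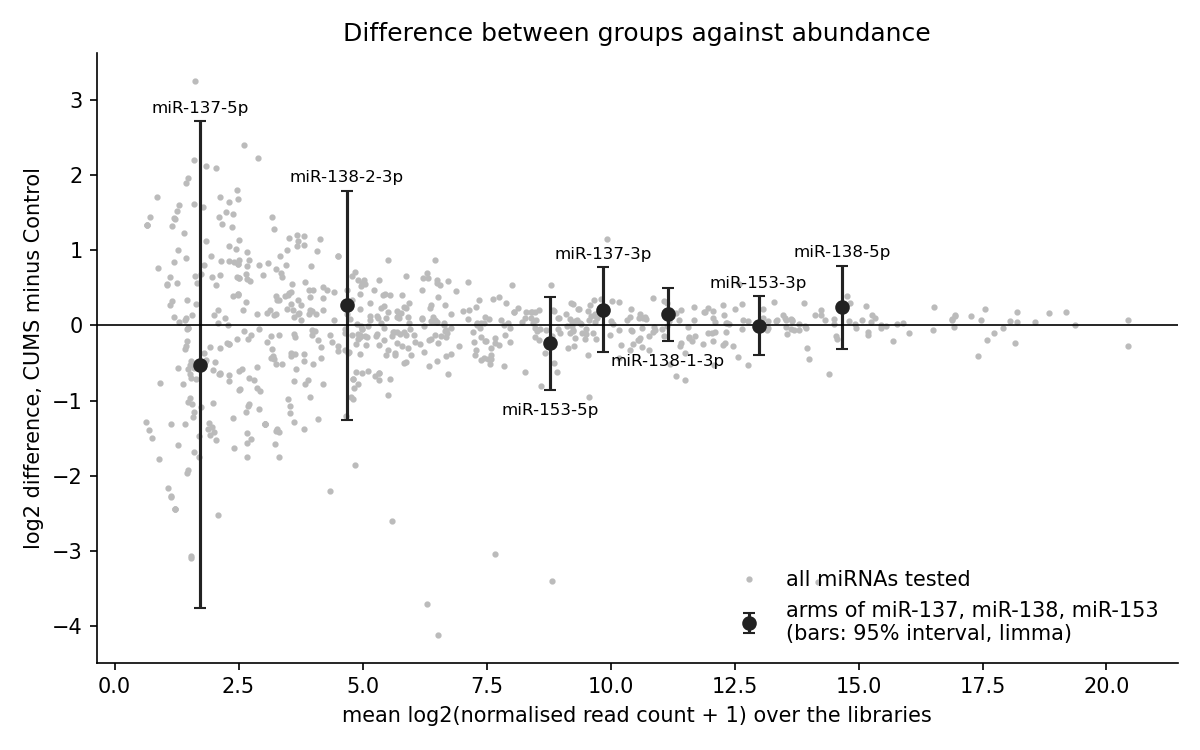
Fitted log2 difference of CUMS minus Control against the mean log2 of normalised count plus 1 for the 719 miRNAs tested (grey) and the 7 arms (black, with the 95% interval of limma). Each of the 7 intervals includes 0, the narrowest being that of miR-138-1-3p, -0.20 to 0.50, and the widest that of miR-137-5p, -3.76 to 2.71.

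The ratio of the arms of a hairpin compares reads within a library. miR-138-5p had 9.44 (a) and 12.6 (b) times the reads of its 3p arms together for Control, and 13.9 (a) and 9.60 (b) times for CUMS. Control library b and CUMS library a had the higher ratios, the same libraries in which miR-138-5p was highest, and the groups overlapped. This match is no separate observation, since miR-138-5p is the numerator of the ratio. The 3p reads are nearly all miR-138-1-3p, which ran only from 2162 to 2420 in normalised counts. miR-153-3p had 20.5 (a) and 14.2 (b) times the reads of miR-153-5p for Control, and 19.4 (a) and 20.8 (b) times for CUMS. Control library b was the low one and the others were close together. miR-137-3p was the most one-sided of the guides. miR-137-5p made up 0.654% (95% exact interval 0.263% to 1.34%) and 0.142% (0.0036% to 0.787%) of the reads of the pair in Control. In CUMS it made up 0.712% (0.287% to 1.46%) of them in library a, and 0 of 1008 reads in library b, where 3 reads would be 0.298% and the exact interval reaches 0.365%.
The loci of miR-138 can be compared only through their 3p arms. miR-138-1-3p had 131 (a) and 72.1 (b) times the reads of miR-138-2-3p for Control, and 48.9 (a) and 163 (b) times for CUMS. The share of miR-138-2-3p in the 3p reads was thus highest in CUMS library a, at 2.01% (exact interval 1.5% to 2.62%), and lowest in CUMS library b, at 0.609% (0.33% to 1.02%). Within each group the library with the higher share was Control library b and CUMS library a. The Control shares were 0.757% (0.44% to 1.21%) in library a and 1.37% (0.92% to 1.95%) in library b. Their intervals overlapped, so the order within Control is not resolved. Whether the loci also differ in how much 5p arm they give was not tested, since the 5p arm is shared. On the log2 scale the ratios differed between CUMS and Control by 0.73 for miR-137, 0.087 for miR-138, 0.23 for miR-153 and -0.12 for the 3p arms of miR-138. Without Control library b these differences were 1.44, 0.29, -0.032 and -0.53. Each of them changed sign with some library left out, to -0.84 for miR-137 without CUMS library b, and to -0.032 for miR-153 without Control library b. That of miR-138 changed to -0.12 without Control library a and -0.18 without CUMS library a, and that of its 3p arms to 0.29 and 0.72 without these libraries. Each of these 4 ratios overlapped between the groups, and the two-sided exact permutation p was 0.667 for miR-138 and miR-153 and 1.00 for the others.

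**Figure D3:**
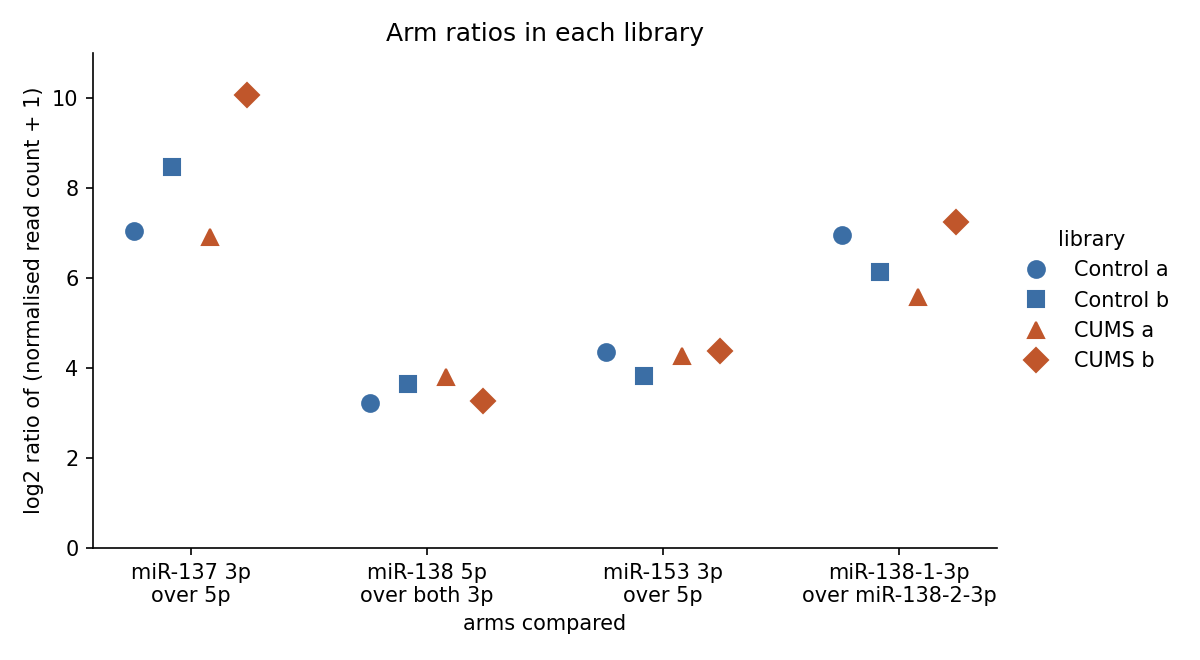
Log2 ratio of the arms, each as normalised count plus 1, in each library (blue, Control; orange, CUMS). The values of miR-138 lay between 3.24 and 3.80 and those of miR-153 between 3.82 and 4.37, while those of miR-137 spread from 6.92 to 10.1 over a 5p arm of 0 to 7 reads.

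The 4 libraries were compared by the deviation of each miRNA from its own mean, as a distance on the log2 scale, among the 303 other miRNAs with a mean normalised count of at least 100. The distances are descriptions over 4 libraries, with no test. The pattern of miR-138-5p, low in Control library a and CUMS library b, was nearest to miR-434-3p (distance 0.041), miR-376a-5p (0.056) and miR-431-5p (0.067), and these were the only 3 miRNAs within 0.1. Their sequences lie on chromosome 12, at chr12:109594565-109594586, chr12:109723786-109723807 and chr12:109590459-109590479 on the plus strand, a stretch that was looked at after these values were seen. This stretch was drawn from miR-431-5p to miR-376a-5p, so the 3 neighbours of miR-138-5p lie in it by construction. Of the 266 compared miRNAs with a sequence in RefSeq, 31 (11.7%) lie in it. These 31 include a neighbour of miR-153-3p, miR-127-3p, and a neighbour of miR-137-3p, miR-370-5p. For miR-434-3p the normalised counts were 250657 (a) and 314826 (b) for Control and 385033 (a) and 263421 (b) for CUMS.
miR-153-3p was nearest to miR-7019-3p (0.026), miR-344d-3p (0.036) and miR-127-3p (0.037), with 39 miRNAs within 0.1. miR-138-1-3p was nearest to miR-27b-3p (0.023), miR-125b-5p (0.031) and miR-125b-1-3p (0.032), with 70 within 0.1. A flat pattern therefore had many neighbours, and that of miR-138-5p had few. miR-137-3p was added to this comparison after its values were seen. It was nearest to miR-29b-3p (0.052), miR-370-5p (0.053) and miR-221-3p (0.065), with 5 within 0.1, and each of these was lowest in Control library b.
No guide was within 0.1 of another. The distance of miR-138-5p was 0.436 to miR-137-3p and 0.210 to miR-153-3p, and it was 0.251 to miR-138-1-3p, a 3p arm of its own. The median distance of miR-138-5p to all 303 miRNAs was 0.317, so miR-153-3p and miR-138-1-3p were nearer to it than this and miR-137-3p was further away.

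**Figure D4:**
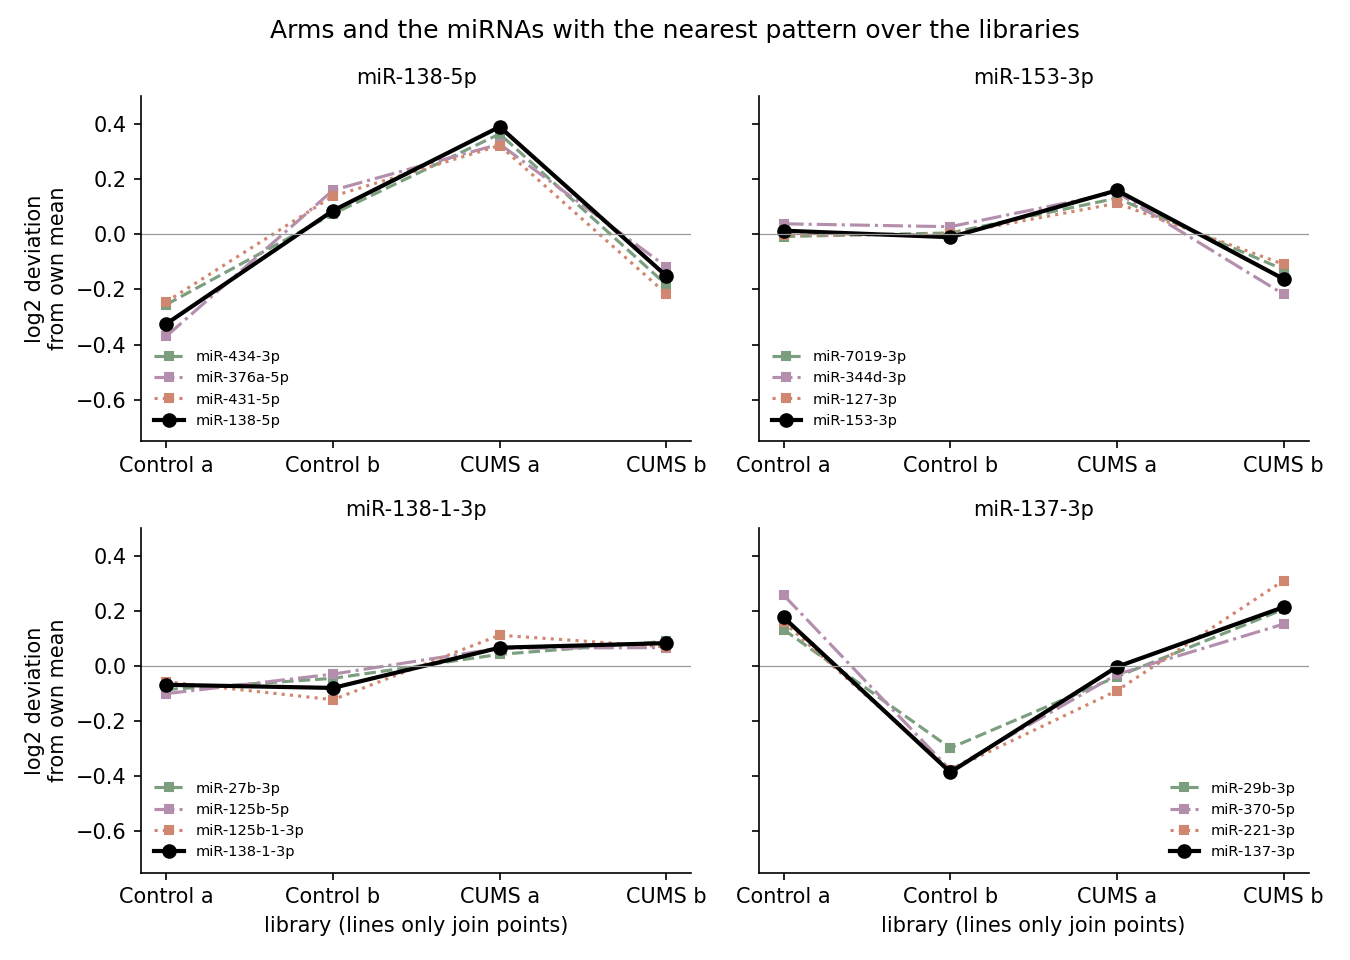
Deviation of log2 normalised count plus 1 from the mean over the 4 libraries, for the 4 most abundant arms (black) and the 3 miRNAs nearest to each (coloured). The points of miR-138-5p run from -0.32 in Control library a to 0.39 in CUMS library a, and those of miR-138-1-3p from -0.08 to 0.08.

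The arms were set beside 23 other brain miRNAs studied at synapses. limma called 0 of the 23, as it did of all 719, and the fitted difference was higher in CUMS for 15 and lower for 8, with a median of 0.050. With scaling by TMM factors 12 were higher and 11 lower, and the median was 0.015. The difference was 0.39 for miR-124-3p, a miRNA of neuronal identity, and 0.18 for miR-9-5p and 0.069 for miR-9-3p, known from neural progenitors and from neurons. It was 0.065 for miR-128-3p, which acts on neuronal excitability, and 0.28 and 0.23 for miR-132-3p and miR-212-3p, which are induced by neuronal activity. Over all 23 the differences ran from -0.80 for miR-384-5p (limma adjusted p = 0.835), named after its value was seen, to the 0.39 of miR-124-3p, and those of the 7 arms lay within this range.

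The labelled tissue was set beside lists of miRNAs known from cell types it could hold. The 5 neuronal miRNAs made up 8.14% (a) and 6.55% (b) of the reads for Control and 8.06% (a) and 9.32% (b) for CUMS, and most of these reads were of miR-9-5p, which is not of neurons alone. All 5 are also among the 23 synapse miRNAs. Control library b had the lowest share of them and the lowest level of miR-137-3p. Shares and CPM are taken of all miRNA reads. In Control library b the 9.32% on the epithelium and sensory list therefore lowers every other share. By summed normalised counts the neuronal list was also lowest there, at 705916, against 790908 to 946647 in the other libraries. Within the list miR-129-5p did not follow, at 515 CPM in Control library b against 489 in Control library a and 509 in CUMS library b. The other members were lowest in Control library b by CPM. By normalised counts, miR-128-3p was slightly lower in CUMS library b (169094) than in Control library b (169772). The mural cell list of 2, almost entirely miR-143-3p, made up 2.89% (a) and 1.95% (b) for Control and 2.08% (a) and 2.89% (b) for CUMS. Through miR-143-3p it was low in Control library b and CUMS library a, where miR-138-5p was high. Its other miRNA, miR-145a-5p, did not follow in CUMS library a. It was at 14.6 (a) and 12.7 (b) CPM for Control and 14.5 (a) and 22.7 (b) for CUMS. The 2 choroid plexus miRNAs, led by miR-204-5p, made up 0.164% (a) and 0.204% (b) for Control and 0.163% (a) and 0.124% (b) for CUMS. The other miRNA of this list ran the other way in Control, with 127 reads (a) and 20 reads (b). The 3 oligodendrocyte miRNAs, led by miR-338-3p, made up 0.0765% (a) and 0.0776% (b) for Control and 0.0628% (a) and 0.0722% (b) for CUMS. The 3 red cell miRNAs, led by miR-486a-5p, made up 1.16% (a) and 1.07% (b) for Control and 1.17% (a) and 1.33% (b) for CUMS. The summed shares of these 3 lists thus did not overlap between the groups, as the counts of miR-138-1-3p did not. CUMS was lower for choroid plexus and oligodendrocytes and higher for red cells. Such a pattern was common among single miRNAs. When scaled to total reads, 163 of the 719 tested had both CUMS libraries above both Control libraries, and 85 had both below. By normalised counts the red cell list overlapped. The fitted difference was lower in CUMS for 2 of 2 choroid plexus and 3 of 3 oligodendrocyte miRNAs (median -0.39 and -0.21). It was higher for 3 of 3 red cell miRNAs (median 0.18) and 5 of 5 neuronal miRNAs (median 0.18), or 4 of 5 neuronal ones by TMM factors. Among miRNAs of microglia and blood immune cells 4 of 5 were lower (median -0.40). The mural and endothelial lists each had 1 higher and 1 lower. Over all miRNAs tested 50.5% were higher, and limma called 0 miRNAs of these lists. The 2 endothelial miRNAs, led by miR-126a-5p, made up between 0.118% and 0.145% of a library, and the 5 of microglia and blood immune cells, led by miR-142a-5p, between 0.0186% and 0.0257%. All miRNAs of these 7 lists had reads in every library. The part of these cell types, and of the epithelium and sensory list, in the values of the arms was not tested. In bulk tissue, fewer cells of a type and less RNA per cell cannot be told apart.

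**Figure D5:**
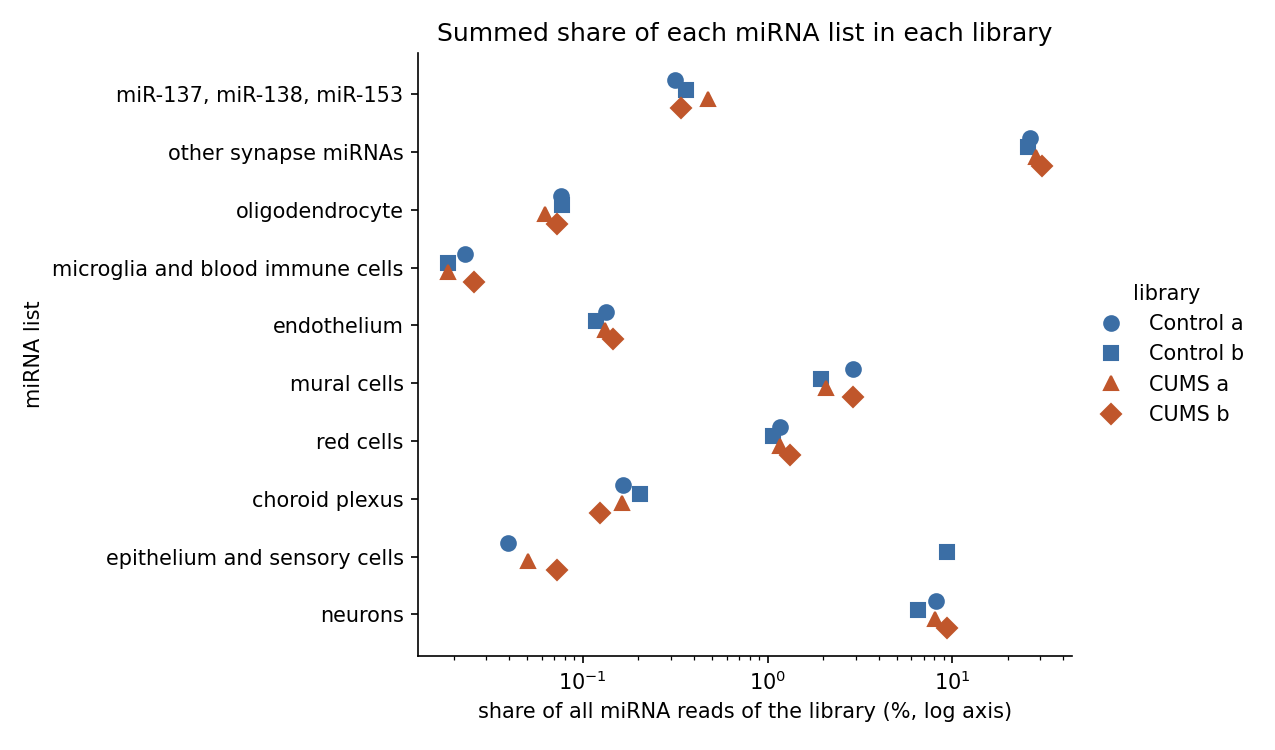
Summed share of the miRNA reads of each library, on a log axis, for the 7 arms, the 23 other synapse miRNAs and the 8 cell type lists (blue, Control; orange, CUMS). The epithelium and sensory list was at 9.32% in Control library b and between 0.0393% and 0.0721% in the other libraries, and the 7 arms lay between 0.316% and 0.478%.

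The seeds of the guides were looked up in the 3′ UTRs of 13 genes known as their targets, 6 for miR-137-3p, 3 for miR-138-5p and 4 for miR-153-3p. The longest 3′ UTR of each gene in GENCODE M21 on GRCm38 was searched, on the strand of the mRNA, for the reverse complement of bases 2 to 8 of the miRNA. mRNA was not analysed here, so the matches describe the sequence and not a regulation. These genes were found as targets partly by their seed matches, so that a high share of matches among them is no independent evidence.
For miR-138-5p the motif was CACCAGC, present in 11.9% of the 21020 longest 3′ UTRs of protein-coding genes. All 3 genes had a single match: Lypla1, which encodes a depalmitoylating enzyme of dendritic spines, Sirt1, a deacetylase, and Rhoc, a small GTPase of the actin cytoskeleton. Among genes with a 3′ UTR within 20% of the same length, 14.9% had the motif for Lypla1, 14.6% for Sirt1 and 4.27% for Rhoc. The matches are in capitals in the mRNA sequence, written with T, and the coordinates are those of the match.
Lypla1, chr1:4845045-4845051, plus strand: tagaagttCACCAGCatcacagt
Sirt1, chr10:63320595-63320601, minus strand: aattgctcCACCAGCattgggaa
Rhoc, chr3:104794327-104794333, plus strand: atattacaCACCAGCactttata
The matches of Lypla1 and Sirt1 lie near the start of the 3′ UTR, from position 29 and position 35 after the stop codon, and that of Rhoc from position 284 of 416. Each is followed by an A, the base that often strengthens a site.
For miR-153-3p the motif was CTATGCA, present in 7.99% of the 3′ UTRs. Of its 4 genes, 3 had a match: Snap25 and Vamp2, which encode proteins of the fusion machinery of synaptic vesicles, and App, which encodes the amyloid precursor protein.
Snap25, chr2:136782219-136782225, plus strand: atctagagCTATGCAcaccaaat
Vamp2, chr11:69090986-69090992, plus strand: tgcatctgCTATGCAatagcccc
App, chr16:84954849-84954855, minus strand: cctgatcaCTATGCAttttgaac
Of these, only the match of Vamp2 is followed by an A. Among 3′ UTRs of similar length the motif was in 6.91% for Snap25, 9.36% for Vamp2 and 29.1% for App, whose 3′ UTR is 5646 bases long. Stx1a, a further gene of the fusion machinery, had 0 matches in 1196 bases.
For miR-137-3p the motif was AGCAATA, present in 9.67% of the 3′ UTRs. Of its 6 genes, 3 had a match: Cplx1 and Syt1, which encode complexin and synaptotagmin of the vesicle release machinery, and Kdm1a, which encodes a histone demethylase.
Cplx1, chr5:108519498-108519504, minus strand: ggaaacacAGCAATAgatttgga
Syt1, chr10:108500318-108500324, minus strand: ttcttttaAGCAATAtgatgtgt
Kdm1a, chr4:136550778-136550784, minus strand: gctcttctAGCAATActagatcc
None of these 3 matches is followed by an A. Among 3′ UTRs of similar length the motif was in 10.4% for Cplx1, 20.1% for Syt1 and 2.21% for Kdm1a. Gria1, which encodes a subunit of AMPA receptors, Ezh2, a histone methyltransferase, and Nsf, the ATPase that recycles the fusion machinery, had 0 matches. This says only that the letters are not in these 3′ UTRs as annotated, since matches of bases 2 to 7 alone were not searched.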

How the data were processed

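Small RNA of 2 Control and 2 CUMS libraries was analysed. The authors matched cleaned reads to mouse miRBase precursors with no mismatch, counted them per mature miRNA and ran DESeq. The signal in the deposited table is the mean of each group of reads divided by DESeq size factors. For the small RNA reads, Bowtie and DESeq are named without versions, and the build is mm10. The columns name no group, and were assigned by the headings under which the study prints them. The deposited fold change, its log2 value, p-value and adjusted p-value compare the groups and were not used, nor was the overall mean.

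Each group mean was solved as whole reads of 2 libraries with a step for each library. All 1038 values came out whole in both groups (100%, relative tolerance 1e-09). For 2 Control miRNAs, none of them an arm reported here, another pair of whole numbers came within 10 times the residual. The size factors, 1.02, 1.00, 1.06 and 0.944, equalled the median of ratios over 650 miRNAs. With totals of 9589323 to 10783592 reads, 3 reads were the floor.

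The main test was limma 3.58.1 with a trend on log2(reads divided by size factor + 1) for miRNAs that reached 5 reads in any library, with group as the only factor and Benjamini-Hochberg adjustment. The alternatives were edgeR 4.0.16 (quasi-likelihood, TMM), DESeq2 1.42.0 (Wald), no filter, a mean of at least 50, pseudocounts of 0.5 and 5, scaling to total reads or by TMM, and leaving out each library. Scaling to reads outside the epithelium and sensory list was chosen after seeing the data. R 4.3.3, Python 3.11.15, numpy 2.4.6, pandas 2.3.3, scipy 1.17.1 and matplotlib 3.10.9 were used, and the fits and the recovery were tested on simulated data. Named miRNAs were the 7 arms, the 3 nearest patterns of the 3 most abundant arms, the first 6 of the synapse list, miRNAs sharing a seed, and 13 target genes. A further gene of the target list is not reported here. The cell type lists covered neurons, oligodendrocytes, microglia and blood immune cells, endothelium, mural cells, red cells, choroid plexus, and epithelium and sensory cells, and each list's most abundant miRNA was named. The members and lists were chosen with earlier results of these data known.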

Additional observations from a re-analysis of the deposited data

How the results depend on the processing

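With each library left out in turn, where the lone library of a group is assumed to vary like the other group, the count of miRNAs called ran from 0 to 7 and that of the arms called was 0. The other alternatives called 0 miRNAs, and the count of arms whose groups do not overlap was 1 of 7 with every scaling tried, beside 33.8% of the 719 miRNAs by size factors. The log2 differences ran, with each library left out, from -0.078 to 0.48 for miR-137-3p, -1.97 to 0.95 for miR-137-5p, -0.041 to 0.51 for miR-138-5p, 0.14 to 0.15 for miR-138-1-3p, -0.57 to 1.10 for miR-138-2-3p, -0.17 to 0.16 for miR-153-3p and -0.50 to 0.011 for miR-153-5p. The differences of the log2 arm ratios between CUMS and Control ran from -0.84 to 2.28 for miR-137, -0.18 to 0.36 for miR-138, -0.032 to 0.50 for miR-153 and -0.96 to 0.72 for the 3p arms of miR-138. Among the other alternatives only miR-153-3p changed sign, from -0.0027 to 0.0010 (DESeq2), 0.075 (scaled to total reads), 0.0048 (scaled to reads outside the epithelium and sensory list, chosen after seeing the data) and 0.0062 (log2 ratio of the deposited means). The cause of these changes was not tested. No paired analysis was possible because the table holds group means and the recovered libraries carry no replicate number, so the fit with a replicate block was not run. Few reads limit what can be said of miR-137-5p, which had at most 7 reads in a library.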
